A study of Mus musculus with 18 samples.

Results

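Haematopoietic stem cells cultured for 48 h in medium at pH 6.9 were compared with stem cells taken fresh from bone marrow at pH 7.4. Each of these groups has 6 libraries by its labels, of the 18 in the series. Libraries with a total under 100000 counts or with fewer than 10000 genes detected were left out, which leaves 5 libraries at pH 6.9 (mice 1, 2, 4, 5 and 6) and 4 fresh ones (mice 2, 3, 5 and 6). A group cultured for 48 h at pH 7.4 (6 libraries) entered the fit for the estimate of spread and is set beside single genes. Every library came from 100 sorted long-term stem cells (LT-HSCs) of mice aged 8 to 12 weeks, given as B6.SJL in one label field and as wild-type C57 B6 in another. The cultured groups shared a medium with 10% fetal bovine serum and with 3 cytokines at 50 ng/ml each (G-CSF, thrombopoietin and stem cell factor), kept at 37 °C, 5% CO2 and 3% O2, while the fresh cells are labelled as uncultured. Culture and pH therefore change together in this comparison.

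LT-HSCs are rare marrow cells, mostly resting, that can rebuild all blood lineages after transplantation. They make little protein for their size, and culture with cytokines pushes them towards growth and division. Polyamines (putrescine, spermidine and spermine) are small cations made from ornithine, and spermidine is also the donor for hypusine, a modified residue of the translation factor eIF5A.

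The libraries used held 3196585 to 3976777 counts in fresh cells and 1640817 to 7508120 at pH 6.9, with 11225 to 12516 genes detected. Fresh replicate 1 (6311 counts), fresh replicate 4 (9408 genes) and pH 6.9 replicate 3 (8925 genes) were the ones left out. First indexes differ between odd- and even-numbered mice within each group, which splits every group into 2 sets of libraries. Within a set, index and condition cannot be told apart. On the first principal component of the 15 libraries of all groups, the pH 6.9 libraries lay at 64.9 and 52.7 in odd-numbered mice and at -34.6, -42 and -43.8 in even-numbered mice. Fresh libraries lay at -1.68 and 15 in odd-numbered mice and at 43.2 and 35.8 in even-numbered mice, so the pH 6.9 libraries stood on opposite sides of the fresh ones of their set. Cultures at pH 7.4 from odd-numbered mice lay at -42.5, -32 and -30.0, in the range of the even-numbered libraries of pH 6.9 or near it, while those from even-numbered mice lay at 1.67, 4.11 and 9.13. The parts of preparation and labelling of the sets in this were not tested, and every odd- or even-mouse value below takes the labels as given.

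Genes that mark stem cells were present in both groups. Hlf, a transcription factor of LT-HSCs, stood at 35.8 to 62 counts scaled to 1e+06 per library (CPM) in fresh and 30.0 to 79.6 in pH 6.9 libraries. The 42 genes of the LT-HSC list summed to 4543 to 5229.7 CPM in fresh libraries and 5491 to 6209.9 at pH 6.9, so that the sums did not overlap. These sums cover the libraries used and can rest on a few abundant genes, and the part of single genes was not tested. Of other cell types, Pax5 of B cells and Cdh5 of endothelium had no count in these 9 libraries, and Cd3e of T cells reached at most 1.08 CPM. The B cell list (15 genes, of which 2 were at 0 in all 9 libraries) summed to 32.7 to 67.9 CPM fresh and 32.6 to 57.6 at pH 6.9. Erythroid genes (19) summed to 1326 to 2291 CPM fresh and 1036 to 2380 at pH 6.9. The monocyte and macrophage list (18 genes) held 175 to 382 and 221 to 456 CPM. Epithelial genes (15) held 101 to 200 CPM fresh and 135 to 722 at pH 6.9, highest in replicate 1. The part of other cells in these sums was not tested. The list of T and NK cells (16 genes) summed to 33.6 to 157 CPM fresh and 19.9 to 101 at pH 6.9. The endothelial list (15 genes, of which 4 were at 0 in all 9 libraries) summed to 211 and 158 CPM fresh and 432, 537 and 524 at pH 6.9 in even-numbered mice, moving with the calls there. In odd-numbered mice it summed to 391 and 216 fresh and 264 and 189 at pH 6.9. Pecam1, which stem cells also express, held most of that sum in the even-numbered pH 6.9 libraries, and the part of other cells in it was not tested. Summed over 16 genes, markers of mesenchymal stroma held 2.24 to 13 CPM in fresh and 1.24 to 7.61 in pH 6.9 libraries. Fresh replicate 5 stood apart in Mpo, a granule enzyme of myeloid progenitors, with 3139.9 CPM against 4.02 to 85.8 in the other fresh libraries and 0.98 to 21.1 at pH 6.9. Genes of G2 phase and mitosis (60) summed to 16416 to 21299 CPM in fresh and 8901 to 17275 in pH 6.9 libraries. Mitotic transcripts were thus abundant in the fresh cells too, which are called LT-HSCs here after their labels. The share of resting cells was not tested. In bulk libraries, fewer cells of a type and less RNA per cell cannot be told apart.

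Over all mice no gene passed the test between pH 6.9 and fresh cells, while the even-numbered mice on their own gave many calls in both directions. Of 10659 genes tested with edgeR, 0 had an adjusted p under 0.05 over the 5 and 4 libraries (0% called). An unadjusted p under 0.05 was reached by 595 genes, 361 higher and 234 lower at pH 6.9, and the smallest adjusted p was 0.83. DESeq2 and limma-voom also called 0 genes. Within even-numbered mice (3 libraries against 2), 508 genes were higher (4.77% called) and 656 lower (6.15% called) at pH 6.9, together 10.9%, or 422 genes in all without fresh replicate 2, 556 without fresh replicate 6, 754 when pH 6.9 replicate 4 was left out and 560 when pH 6.9 replicate 6 was. Within odd-numbered mice (2 against 2), 7 were higher (0.0657% called) and 57 lower (0.535% called), together 0.6%, or 20 genes in all with the mouse number as a term. That odd-mouse count was 16 without fresh replicate 3, 14 when pH 6.9 replicate 1 was left out and 150 when pH 6.9 replicate 5 was. The test of the difference between these changes called 1358 genes (12.7% called, 6.53% with the higher and 6.21% with the lower change in even mice), of which 1333 had opposite signs in the odd and even mice (686 called without fresh replicate 2 and 480 without fresh replicate 3). Of all genes tested, 3856 had the same sign in both, and the odd and even changes had a Pearson r of -0.29 across genes (genes are no independent replicates). With all 18 libraries in the fit, 82 genes were called in even-numbered mice, 1 in odd-numbered mice and 678 for the difference, and the odd-mouse calls of all genes named below were lost.

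**Figure D1:**
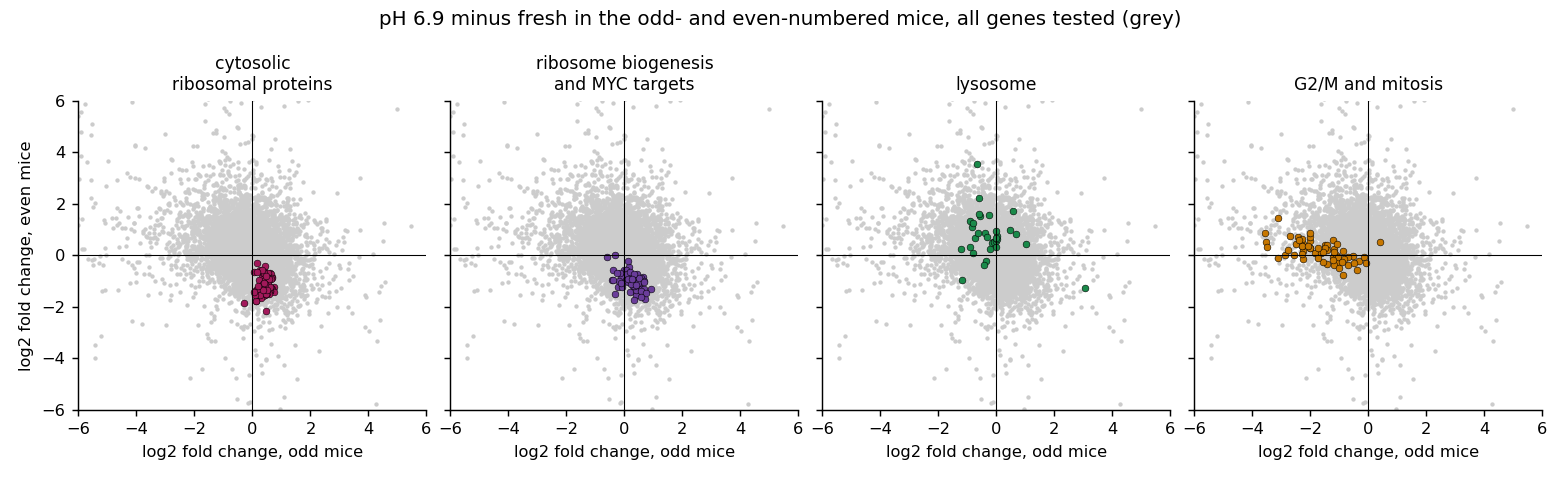
Log2 fold change of pH 6.9 minus fresh in odd-numbered mice (x axis) and in even-numbered mice (y axis) for all genes tested (grey) and, in 1 panel each, for the members of 4 lists (coloured). Axes end at 6 in either direction, which leaves 122 genes out of view. Genes of ribosomal proteins and ribosome biogenesis lie mostly to the right of and below zero, lysosomal genes mostly above zero, and genes of mitosis to the left.

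In some genes the libraries used did not overlap between the groups. With this few libraries some genes separate by random order alone. The number expected that way was not computed, and 0 genes were called over all mice. Of the genes tested, 91 had all 5 pH 6.9 libraries above all 4 fresh ones (0.854% called by this rule) and 110 had all of them below (1.03% called). When fresh replicate 4 and pH 6.9 replicate 3 were put back and all libraries rescaled together, 9 genes had no overlap upwards and 12 downwards. Fresh replicate 1, with 6311 counts in all, does not enter the rescaled comparisons given below.

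Hmox1 encodes haem oxygenase 1, which breaks down haem and is a target of the oxidant-sensing factor NRF2 (chromosome 8, 75093621 to 75100589, plus strand of GRCm38, the mm10 assembly). It stood at 104, 128, 140.4 and 109.5 CPM in fresh mice 2, 3, 5 and 6. At pH 6.9 it stood at 510.4, 309, 626, 337 and 520.3 CPM in mice 1, 2, 4, 5 and 6. The lowest cultured library was above the highest fresh one, in odd- and even-numbered mice alike. The means were 121 ± 16.7 CPM (SD, 4 libraries) and 460.5 ± 134 (SD, 5 libraries). The log2 fold change was 1.93 ± 0.58 (SE), a 3.81-fold difference, with an edgeR adjusted p of 0.83. It was 1.65 ± 0.45 in odd-numbered mice (adjusted p = 0.121) and 2.18 ± 0.44 in even-numbered mice (adjusted p = 0.00633). The even-mouse call was lost without fresh replicate 2 (adjusted p = 0.0806) or fresh replicate 6 (adjusted p = 0.0598). In an edgeR fit of the fresh and pH 6.9 libraries alone, Hmox1 was the single gene called over all mice, with an adjusted p of 0.0205. The left-out libraries, rescaled with the rest, gave 114 CPM in fresh replicate 4 and 174 in pH 6.9 replicate 3, and the groups still did not overlap. At pH 7.4 the cultured libraries of mice 1 to 6 stood at 346, 63.4, 618, 163, 427 and 57.1 CPM, higher in all odd-numbered than in all even-numbered mice.

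Nqo1, an NRF2 target that reduces quinones (chromosome 8, 107388225 to 107403206, minus strand), was 203, 249, 175 and 217 CPM in fresh mice 2, 3, 5 and 6. It was 465, 329, 402, 330.1 and 544 CPM at pH 6.9 in mice 1, 2, 4, 5 and 6, again without overlap. Its log2 fold change was 0.97 ± 0.29 over all mice, 0.90 ± 0.35 in odd and 1.02 ± 0.33 in even mice, and none of these passed (edgeR adjusted p of 0.83, 0.258 and 0.0525). Rescaled with the rest, the left-out pH 6.9 replicate 3 lay at 199 CPM, inside the fresh range. Of 22 NRF2 targets tested, 3 (Hmox1, Nqo1 and Abcc4) had no overlap upwards, against 0.854% of all genes tested. With fresh replicate 4 and pH 6.9 replicate 3 put back and rescaled, only Hmox1 of these still had no overlap. A positive fold change over all mice was seen in 16 of the 22, against 49.9% of all genes tested. The list's median was 0.42, against 0.00 for all genes tested.

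Ly6a encodes the surface protein Sca-1, commonly used to sort mouse stem cells (chromosome 15, 74994877 to 74998031, minus strand). It lies outside the rule for named genes and was chosen after its values were seen. Fresh mice 2, 3, 5 and 6 had 418, 262, 323 and 354 CPM. At pH 6.9 mice 1, 2, 4, 5 and 6 had 970.4, 797, 1075, 694 and 931 CPM, all above the fresh libraries. The log2 fold change was 1.40 ± 0.52 (edgeR adjusted p = 0.83), with 1.51 ± 0.46 in odd- and 1.28 ± 0.43 in even-numbered mice (adjusted p of 0.170 and 0.0726). The left-out libraries put back stood higher still, at 2247 CPM in fresh replicate 4 and 2096 in pH 6.9 replicate 3, so that with them the groups overlap. Of the 40 LT-HSC genes tested, 31 had a fold change above zero over all mice (median 0.30), against 49.9% of all genes tested, and 0 were called. Within even-numbered mice 1 was called, against 10.9% of all genes tested. It was Cd34, an antigen of progenitors, whose values and direction are not reported here. Procr, the protein C receptor, was 11.5 to 27 CPM in fresh and 7.80 to 51.6 in pH 6.9 libraries, and Mecom, a stem cell transcription factor, was 9.97 to 38.1 and 17 to 48.7. Both ranges overlap, as do those of Kit, the receptor of stem cell factor (80.4 to 206 and 70.5 to 209). Of the genes of cytokine response fixed by name, Socs3, a feedback inhibitor of STAT signalling, was 3.88 to 11.6 and 4.46 to 9.97 CPM, and Csf3r, the G-CSF receptor, 26.2 to 62.8 and 43.5 to 59.7. None of these 5 genes was called in any set.

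Among the genes lower at pH 6.9, Ndc1 was the single gene called in both odd- and even-numbered mice in the same direction (0.00938% called). It encodes a membrane protein that anchors the nuclear pore (chromosome 4, 107367784 to 107416346, plus strand). Fresh mice 2, 3, 5 and 6 had 164, 143, 154 and 145 CPM. At pH 6.9 mice 1, 2, 4, 5 and 6 had 44.1, 71.6, 94.9, 84.1 and 88.9 CPM. The groups did not overlap, and the fresh values spanned the narrower range. The log2 fold change was -0.97 ± 0.24 over all mice (edgeR adjusted p = 0.83), -1.18 ± 0.27 in odd-numbered mice (adjusted p = 0.0479) and -0.85 ± 0.24 in even-numbered mice (adjusted p = 0.0260). With the mouse number as a term the adjusted p values within the sets were 0.154 and 0.0514. In the fit of all 18 libraries they were 0.534 and 0.877, with an even-mouse change of -0.28, and in odd-numbered mice limma-voom gave 0.0936 and DESeq2 size factors 0.0554. The mean of the odd- and even-mouse contrasts was called (-1.01, edgeR adjusted p = 0.0370). The odd-mouse call was lost without fresh replicate 3, fresh replicate 5 or pH 6.9 replicate 1 (adjusted p of 0.182, 0.114 and 0.328). The even-mouse call was lost without fresh replicate 2, fresh replicate 6, pH 6.9 replicate 2 or pH 6.9 replicate 6 (adjusted p of 0.169, 0.0685, 0.0804 and 0.0671). Fresh replicate 4, left out of the fit, had 2.30 CPM, far under the other fresh libraries.

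Cks1b, a partner of cyclin-dependent kinases that helps to degrade the inhibitor p27 (chromosome 3, 89415472 to 89418383, minus strand), was 438, 343, 449 and 395 CPM in fresh mice 2, 3, 5 and 6. It was 159.8, 268, 269, 273 and 199 CPM at pH 6.9 in mice 1, 2, 4, 5 and 6. The groups did not overlap, and the log2 fold change was -0.86 ± 0.26 in odd and -0.76 ± 0.24 in even mice (edgeR adjusted p of 0.151 and 0.0448). The even-mouse call was lost on leaving out any 1 of the 5 even-numbered libraries: the adjusted p was 0.231 without fresh replicate 2, 0.107 without fresh replicate 6, and 0.0652, 0.0718 and 0.168 without pH 6.9 replicates 2, 4 and 6. It was also lost with the mouse number as a term (adjusted p = 0.0695) and with all 18 libraries (adjusted p = 0.171). The left-out libraries, at 818 CPM in fresh replicate 4 and 694 in pH 6.9 replicate 3, made the groups overlap.

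Elac2, which trims the 3′ end of tRNA precursors, was 56.6 to 86 CPM in fresh and 23.9 to 47.2 in pH 6.9 libraries. Atp2a2, the calcium pump of the endoplasmic reticulum, was 99.3 to 120.4 and 49.3 to 97.2 CPM, and Srebf1, a transcription factor of lipid synthesis, 20.4 to 34.6 and 10.6 to 17.5. Hgh1, Dok2, Pomt1 and Kctd5 were also lower at pH 6.9 with no overlap. Ccnb1ip1 had 75.5 CPM in fresh replicate 5, the library with the highest Mpo, against 1.94 to 8.97 in the other fresh libraries and 0 to 1.25 at pH 6.9. On the upper side, Lpar6, a receptor of lysophosphatidic acid, was 79.5 to 141 CPM fresh and 185 to 345 at pH 6.9. Dyrk3, a protein kinase, was 21.1 to 38.3 and 40.1 to 64.9 CPM, and Coq8a, of coenzyme Q synthesis, 5.77 to 15.9 and 18 to 42.3. Cpt2, which admits long-chain fatty acids to mitochondrial oxidation, was 28.1 to 49.3 and 55.2 to 78 CPM. Trim34a, Ccdc130 and Fam174a were also higher with no overlap, whereas Lax1 (11.2 to 26.5 and 26.1 to 75.2 CPM) and Mxd4 (7.76 to 11 and 8.70 to 44.1 CPM) overlapped. None of these genes was called over all mice (smallest edgeR adjusted p of 0.83). Elac2, Atp2a2, Hgh1, Dyrk3, Coq8a, Cpt2, Ccdc130, Lax1 and Mxd4 were among those called in even-numbered mice. Each lost that call under some alternative setting. The change of Coq8a and Mxd4 differed between the sets. With fresh replicate 4 and pH 6.9 replicate 3 put back and rescaled, only Ccdc130 still had no overlap. Dyrk3 and Coq8a then had 0 CPM in pH 6.9 replicate 3, and Elac2 had 1.15 CPM in fresh replicate 4.

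**Figure D2:**
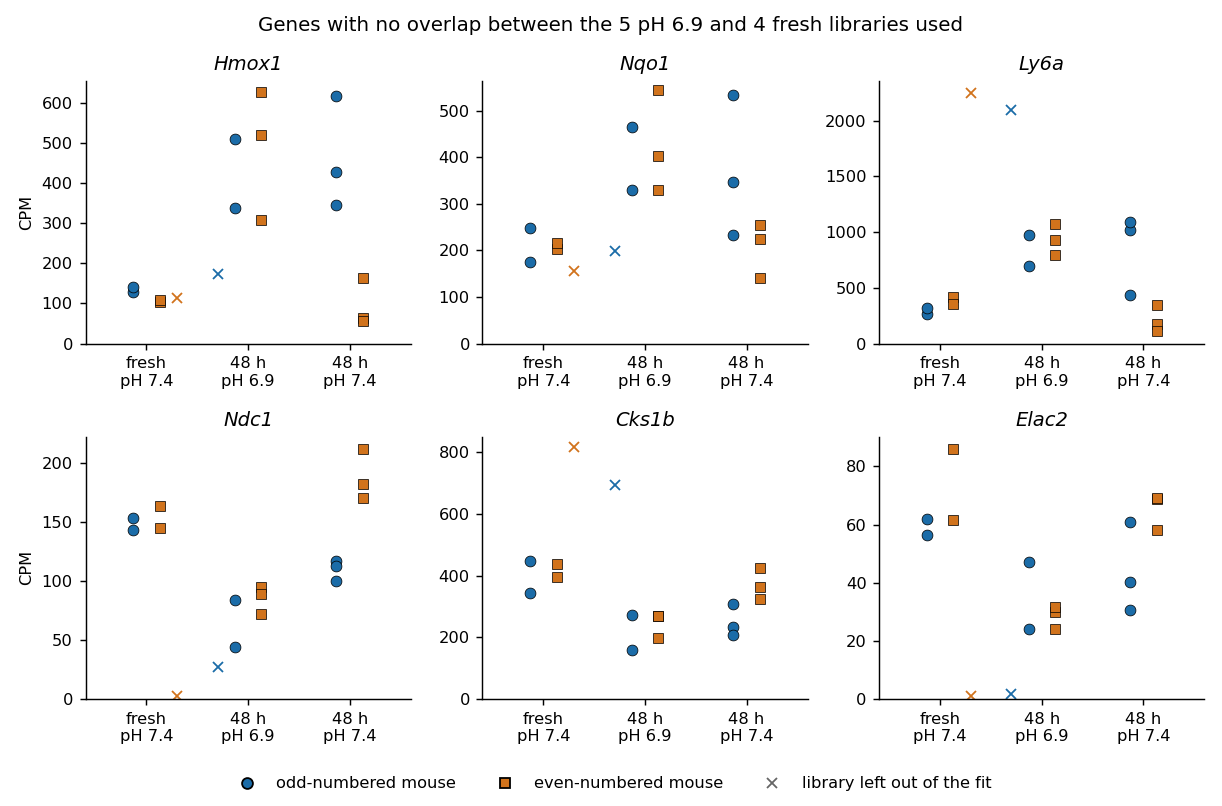
CPM of 6 genes in each library (linear y axis from 0), for fresh cells and for culture at pH 6.9 and pH 7.4, with odd-numbered mice as circles and even-numbered mice as squares. Crosses are fresh replicate 4 and pH 6.9 replicate 3, left out of the fit and rescaled with all 18 libraries. The libraries of the pH 6.9 and fresh groups that were used do not overlap in any panel, and with the crosses only Hmox1 still has no overlap.

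Of 14 genes in the polyamine synthesis list that were tested, 3 were called lower at pH 6.9 in even-numbered mice, against 6.15% of all genes tested. The difference from odd-numbered mice passed the test for Odc1 and Srm. Odc1 encodes ornithine decarboxylase, the enzyme that commits ornithine to putrescine (chromosome 12, 17544794 to 17551505, plus strand). In even-numbered mice it was 520.3 and 628 CPM fresh and 244, 295 and 284 at pH 6.9, while odd-numbered mice had 381 and 411 fresh and 525 and 644 at pH 6.9. The cultured libraries lay below the fresh ones in the even and above them in the odd set. The log2 fold change was -1.06 ± 0.17 in even-numbered mice (edgeR adjusted p = 0.00131), 0.56 ± 0.19 in odd-numbered mice (adjusted p = 0.206) and -0.28 ± 0.26 over all mice (adjusted p = 0.866). The difference between the sets was -1.63 ± 0.26 (adjusted p = 0.00103).

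Srm, spermidine synthase (chromosome 4, 148591503 to 148594993, plus strand), was 755 and 880.2 CPM fresh and 287, 192 and 194 at pH 6.9 in even-numbered mice. In the odd set it was 393 and 742 fresh and 730.4 and 779 at pH 6.9, which overlap. Its change was -1.87 ± 0.24 in even-numbered (edgeR adjusted p = 0.000225) and 0.41 ± 0.26 in odd-numbered mice (adjusted p = 0.523), with a difference of -2.28 ± 0.36 (adjusted p = 0.000902). Odc1 and Srm kept their even-mouse call without any 1 library and with all 18. The last of the 3 called was Ahcy, which clears S-adenosylhomocysteine and makes no polyamine itself. Its call was lost under 4 of 12 alternative settings. In odd-numbered mice 0 genes of this list were called. The even-mouse count was 2 when any 1 of fresh replicate 2, fresh replicate 6 and pH 6.9 replicate 2 was left out. The medians were -0.47 and -0.01, against 0.06 and -0.04 for all genes tested. Sms, spermine synthase, was 43.8 to 89.5 CPM fresh and 35.4 to 71.1 at pH 6.9. Amd1, which supplies the aminopropyl donor, was 187 to 254 and 126 to 228 CPM. Neither of these was called in any set.

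Smox and Sat1, enzymes of polyamine breakdown, were called higher at pH 6.9 in even-numbered mice. Smox, spermine oxidase (chromosome 2, 131491496 to 131525922, plus strand), was 9.38, 11.4, 12.9 and 9.93 CPM in fresh mice 2, 3, 5 and 6. At pH 6.9 it was 24.2, 29.4, 43.5, 18.9 and 22.8 CPM in mice 1, 2, 4, 5 and 6, with no overlap. The log2 fold change was 1.34 ± 0.43 over all mice (edgeR adjusted p = 0.83), 0.82 ± 0.46 in odd and 1.72 ± 0.44 in even mice (adjusted p = 0.457 and 0.0171). The even-mouse call was lost with the mouse number as a term (adjusted p = 0.0575), with all 18 libraries (0.174), with limma-voom (0.0507) and without fresh replicate 2, fresh replicate 6 or pH 6.9 replicate 4 (adjusted p of 0.123, 0.0879 and 0.0670). The left-out pH 6.9 replicate 3 had 6.10 CPM, under the fresh range. Sat1, the acetyltransferase that marks spermidine and spermine for export, was 95.7 and 64.7 CPM fresh and 225, 162 and 228 at pH 6.9 in even-numbered mice. Odd-numbered mice gave 111 and 102 fresh and 171 and 85.2 at pH 6.9, which overlap. Its even-mouse change of 1.35 ± 0.34 (edgeR adjusted p = 0.0145) was not called without fresh replicate 6 (adjusted p = 0.145), without pH 6.9 replicate 6 (adjusted p = 0.0551) or with all 18 libraries (adjusted p = 0.228).

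Slc22a3, an organic cation carrier (chromosome 17, 12418960 to 12507704, minus strand), was named after its values were seen. It was 42.4, 14.9, 29.6 and 31.7 CPM in fresh mice 2, 3, 5 and 6 and 3.11, 4.70, 13.9, 13.4 and 14 at pH 6.9 in mice 1, 2, 4, 5 and 6. Every cultured library was below every fresh one, and with fresh replicate 4 (21.9 CPM) and pH 6.9 replicate 3 (2.61 CPM) put back the groups did not overlap either. Fresh replicate 1 had a count of 0 for this gene. The log2 fold change was -1.52 ± 0.49 (edgeR adjusted p = 0.83). In pH 7.4 culture it was 15.9, 56.3, 32.9, 35.9, 8.44 and 43.5 CPM in mice 1 to 6. Oaz1, an antizyme that steers ornithine decarboxylase to the proteasome, was 928 to 1303 CPM fresh and 965 to 1192 at pH 6.9. Azin1, which inhibits antizymes, was 88.6 to 141 and 47.6 to 99.5 CPM. Neither was called. Of the 11 genes for breakdown, antizymes and transport that were tested, 2 were called higher in even-numbered mice (Smox and Sat1) and 0 lower. Of all genes tested, 4.77% were called higher and 6.15% lower there. Eif5a, the carrier of hypusine, was 4201 and 4413 CPM fresh and 2392, 2077 and 1778 at pH 6.9 in even-numbered mice (-1.05 ± 0.18, edgeR adjusted p = 0.00148). That change was -0.55 with all 18 libraries and not called (adjusted p = 0.740). The odd-numbered mice had 2666 and 4012 fresh and 4253 and 4677 at pH 6.9, not called (0.42 ± 0.20, adjusted p = 0.354).

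**Figure D3:**
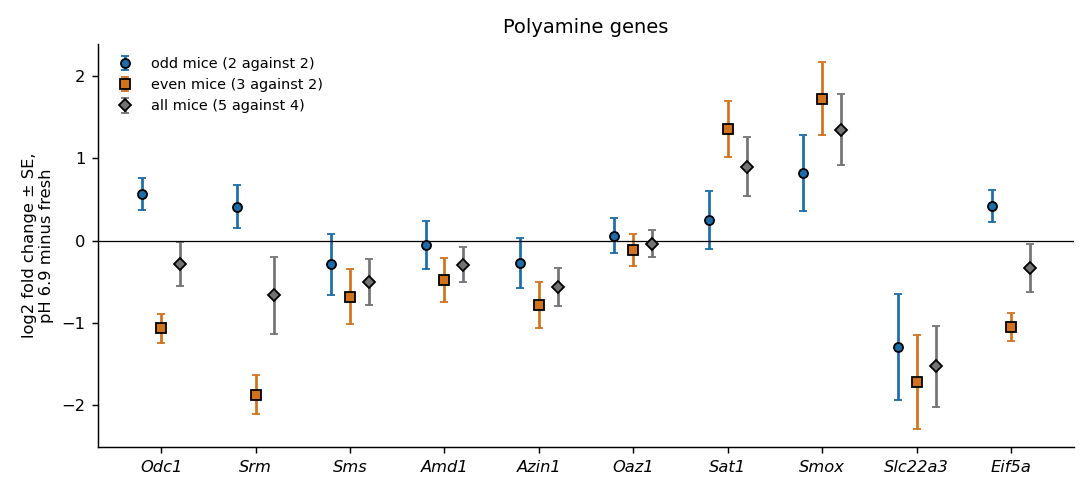
Log2 fold change of pH 6.9 minus fresh (y axis, bars are SE) for 10 genes of polyamine metabolism, in odd-numbered, even-numbered and all mice. Odc1, Srm and Eif5a lie above zero in odd and below zero in even mice, while Smox lies above and Slc22a3 below zero in both.

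The largest groups of calls in even-numbered mice were the machinery that makes ribosomes, proteins and respiratory energy, all lower at pH 6.9. Of 79 genes of cytosolic ribosomal proteins tested, 56 were lower and 0 higher in even-numbered mice with a median log2 fold change of -1.21, against 0.06 for all genes, of which 6.15% were called lower. In odd-numbered mice 78 of the 79 had a fold change above zero (median 0.45), and 0 were called. These genes took 6.55% and 5.54% of counts in fresh even-numbered mice and 3.81%, 2.85% and 3.29% at pH 6.9. The odd-numbered mice had 3.92% and 5.15% fresh and 5.77% and 6.23% at pH 6.9. The share at pH 6.9 was thus below both fresh libraries in even-numbered mice and above both in odd-numbered ones. The left-out libraries had 4.75% in fresh replicate 4 and 4.71% in pH 6.9 replicate 3. Rpl29, of the large subunit (chromosome 9, 106429454 to 106431568, plus strand), was 759 and 657 CPM fresh and 319, 278 and 213 at pH 6.9 in even-numbered mice (-1.39 ± 0.22, edgeR adjusted p = 0.000836). In the odd set it was 408 and 574 fresh and 755 and 743 at pH 6.9 (0.61 ± 0.24, adjusted p = 0.265). Many ribosomal protein genes have near-identical copies in the genome, and estimated counts may divide reads among them.

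Ribosome assembly showed the same split. Of 56 ribosome biogenesis genes and MYC targets, 40 were lower in even-numbered mice (median -1.01) and 0 were called in odd-numbered mice (median 0.27). Ncl, nucleolin (chromosome 1, 86344719 to 86359400, minus strand), was 1634 and 2227 CPM fresh and 792, 726 and 685 at pH 6.9 in even-numbered mice (-1.39 ± 0.18, edgeR adjusted p = 0.000279). Odd-numbered mice gave 1263 and 1629.8 fresh and 1629 and 2106 at pH 6.9. Nhp2, of the particle that pseudouridylates ribosomal RNA, was 869 and 774 CPM fresh and 298, 237 and 221 at pH 6.9 in even-numbered mice (-1.71 ± 0.22, adjusted p = 0.000225). The further assembly factors Npm1 and Nip7 changed by -1.56 ± 0.23 and -1.45 ± 0.20. These 4 and Rpl29 kept their even-mouse call without any 1 library and with all 18. Myc itself, the factor that drives many of these genes, was 388 to 720.3 CPM fresh and 289 to 599.6 at pH 6.9, with -0.26 ± 0.30 in even-numbered mice (adjusted p = 0.651).

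Other genes of protein making and energy, and genes of the proteasome, which degrades proteins, were lower with them in even-numbered mice. All 7 subunits of the chaperonin TRiC tested were lower (median -0.75), as were 11 of 18 translation factors (-0.72), 38 of 78 mitochondrial ribosomal proteins (-0.78), 30 of 76 genes of the respiratory chain and ATP synthase (-0.93) and 17 of 36 of the proteasome (-0.61), with 0 higher in each. Mrpl12, of the mitochondrial ribosome, was 488 and 393 CPM fresh and 161, 158 and 124 at pH 6.9 (-1.58 ± 0.22, edgeR adjusted p = 0.000408). Atp5g1, a rotor subunit of ATP synthase, changed by -1.55 ± 0.29, and Hspe1, the co-chaperonin of mitochondria, by -2.07 ± 0.34. In odd-numbered mice 0 genes of these lists were called, and their medians were positive, from 0.27 for the respiratory chain to 0.40 for the proteasome. Without fresh replicate 2 the even-mouse counts were 12 for cytosolic ribosomal proteins, 26 for ribosome biogenesis, 8 for mitochondrial ribosomal proteins, 7 for the respiratory chain, 2 for the proteasome and 5 for translation factors. Without fresh replicate 6, in the same order, they were 41, 16, 18, 11, 7 and 8. They were 30, 30, 23, 12, 8 and 9 when pH 6.9 replicate 4 was left out and 25, 22, 16, 8, 4 and 7 without pH 6.9 replicate 6. TRiC had 4 of 7 called without fresh replicate 6. With all 18 libraries the calls were 3, 5, 1, 1, 0 and 1 in the order above, and their medians, from -1.45 for the proteasome to -0.79 for translation factors, stayed negative.

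**Figure D4:**
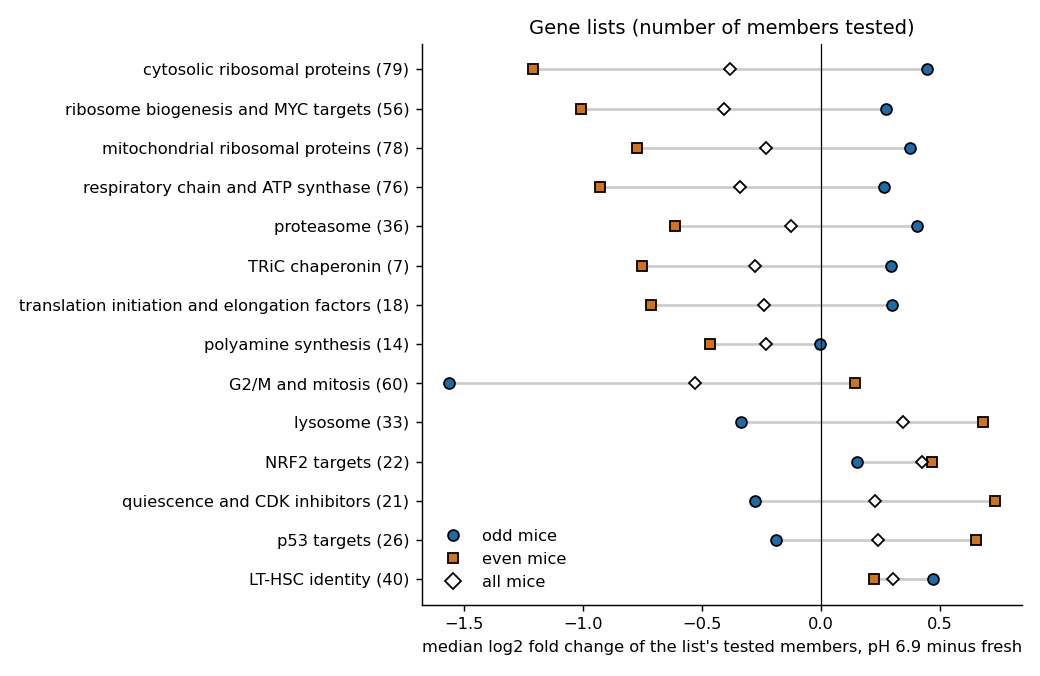
Median log2 fold change of pH 6.9 minus fresh (x axis) over the tested members of 14 lists, for odd-numbered mice (circles), even-numbered mice (squares) and all mice (diamonds). The lists of ribosomes, respiration, proteasome and translation lie below zero in even and above zero in odd mice, the G2/M list has its lowest median in odd mice, and NRF2 targets and LT-HSC genes lie above zero in both.

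In the same even-numbered mice, some genes of lysosomes and of cell-cycle arrest and the NRF2 targets Gclc and Gclm were higher at pH 6.9. Of 33 lysosomal genes tested, 12 were higher and 0 lower (median 0.68), or 4 higher without fresh replicate 2 and 5 without fresh replicate 6. Of all genes tested, 4.77% were called higher in even-numbered mice, the share to set beside this and the next counts. Ctsd, the protease cathepsin D (chromosome 7, 142375911 to 142388038, minus strand), was 535 and 471 CPM fresh and 2065, 2788 and 2265 at pH 6.9. The odd-numbered mice had 1687 and 1435 fresh and 1213 and 828 at pH 6.9, the opposite order. Its log2 fold change was 2.24 ± 0.24 in even-numbered (edgeR adjusted p = 8.69e-05) and -0.62 ± 0.25 in odd-numbered mice (adjusted p = 0.275). Grn, progranulin, changed by 1.61 ± 0.21 in even-numbered mice. Sqstm1, the autophagy receptor p62, changed by 1.73 ± 0.25. All 3 calls were kept without any 1 library.

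Gclc, the catalytic subunit of the first enzyme of glutathione synthesis (chromosome 9, 77754535 to 77794485, plus strand), was 100.2 and 99.9 CPM fresh and 334, 545 and 710.2 at pH 6.9 in even-numbered mice. In the odd set it was 159 and 191 fresh and 124 and 127 at pH 6.9. Its log2 fold change was 2.41 ± 0.34 in even-numbered mice (edgeR adjusted p = 0.000505), with 2.89 ± 0.47 for the difference from odd-numbered mice. Its partner Gclm changed by 1.17 ± 0.17 and Cat, catalase, by 1.43 ± 0.23. These 3 genes, Hmox1 and Gstm1 were the 5 NRF2 targets of 22 called higher in even-numbered mice, with 0 lower, or 3 without fresh replicate 2 and 3 without fresh replicate 6. In odd-numbered mice the log2 fold change was -0.48 ± 0.34 for Gclc, -0.26 ± 0.18 for Gclm and -0.69 ± 0.25 for Cat, none of them called.

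Cdkn1a, the cell-cycle inhibitor p21 (chromosome 17, 29090976 to 29100727, plus strand), was 41.4 and 72.4 CPM fresh and 223, 284 and 286 at pH 6.9 in even-numbered mice. Odd-numbered mice gave 98.2 and 88.1 fresh and 110.0 and 81.6 at pH 6.9, which overlap. The even-mouse change was 2.22 ± 0.31 (edgeR adjusted p = 0.000415) and the odd-mouse change 0.03 ± 0.31 (adjusted p = 0.978). Of 21 genes of quiescence and inhibitors of cyclin-dependent kinases, 4 were higher in even-numbered mice (Cdkn1a, Btg1, Ccng2 and Txnip) and 0 lower, with 2 higher without fresh replicate 6. Cdkn1c, the inhibitor p57, which holds LT-HSCs at rest, was 3.79 to 6.41 CPM fresh and 2.23 to 7.63 at pH 6.9, and was not called. Ccng2, an atypical cyclin tied to arrest, was 14.6 and 26.3 CPM fresh and 131, 59.2 and 136 at pH 6.9 in even-numbered mice. The odd-numbered mice had 83.1 and 44.5 fresh and 12.4 and 15 at pH 6.9, a call the other way (-2.19 ± 0.47, adjusted p = 0.0415). That odd-mouse call was lost without fresh replicate 3, pH 6.9 replicate 1 or pH 6.9 replicate 5 (adjusted p of 0.298, 0.222 and 0.106) and with the mouse number as a term (adjusted p = 0.145). The even-mouse call of Txnip, which restrains glucose uptake (1.61 ± 0.32), was lost without fresh replicate 6 (adjusted p = 0.0683).

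Of 26 p53 targets, 4 were higher in even-numbered mice (15.4%, against 4.77% of all genes) and 0 lower, among them Sesn1, which restrains the growth kinase mTORC1 (1.84 ± 0.24). The count was 2 without fresh replicate 2 and 2 without pH 6.9 replicate 6. Of 26 genes of adhesion and homing, 6 were higher (23.1%), or 3 without fresh replicate 6. Among them were Pecam1 (57.9 and 59.6 CPM fresh, 262, 282 and 351 at pH 6.9) and Selplg, the selectin ligand (1.41 ± 0.25). With all 18 libraries 0 of the lysosomal, quiescence and p53 genes were called. Gclc, Sqstm1, Pecam1 and Hmox1 kept their even-mouse call in that fit, and the other genes with a fold change in these paragraphs did not.

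**Figure D5:**
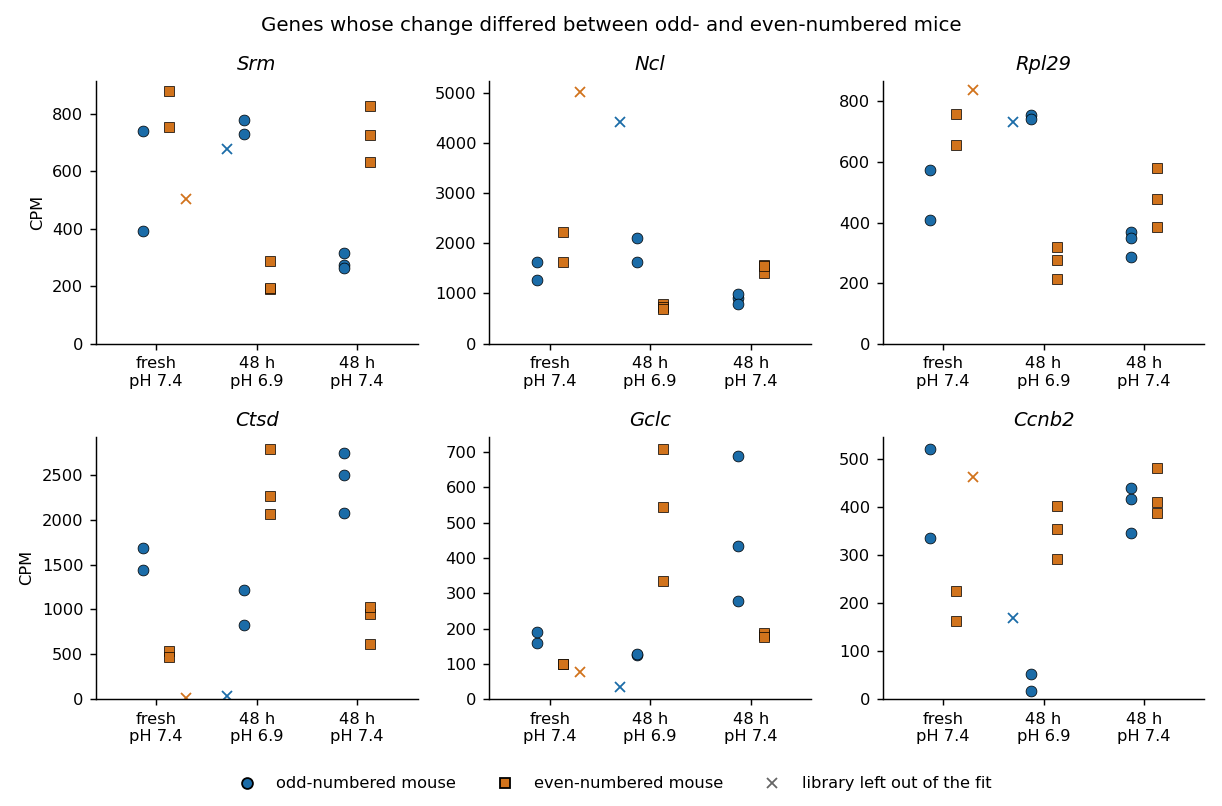
CPM of 6 genes in each library (linear y axis from 0), drawn as in the plot of genes without overlap. Srm, Ncl and Rpl29 are low and Ctsd and Gclc high in the even-numbered mice at pH 6.9, while Ccnb2 is lowest in the odd-numbered mice at pH 6.9.

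Mitosis genes were lower at pH 6.9 in the odd set. Of 60 genes of G2 phase and mitosis tested, 14 were lower and 0 higher there, with a median log2 fold change of -1.56 against -0.04 for all genes, of which 0.535% were called lower. In even-numbered mice 1 was lower (Cks1b) and the median was 0.14. The difference between the sets was called for 25 of the 60, all with the higher change in even-numbered mice. The odd-mouse count was 3 without fresh replicate 3, 3 without pH 6.9 replicate 1, 33 without pH 6.9 replicate 5, 5 with the mouse number as a term and 0 with all 18 libraries, with medians of -1.42, -1.32, -2.19, -1.45 and -1.24.

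Many promoters of mitosis genes hold CCAAT boxes, the sites of the factor NF-Y. CCAAT was searched on either strand in the 250 bases before the first start that RefSeq (GRCm38.p6) lists for a gene. It was found in 36 of the 49 mitosis genes with a promoter in the table (73.5%), in 34.5% of 27025 promoters and in 37.41% of the 8665 that belong to genes tested. Among the 14 called genes, Nusap1, Tacc3 and Knstrn had 0 matches. The 120 bases before the start are shown for 4 called genes, chosen by hand among those known to hold a match, to show where the letters lie, with CCAAT or its reverse complement in capitals.
Ccnb2 (chr9:70421555-70421674, minus strand): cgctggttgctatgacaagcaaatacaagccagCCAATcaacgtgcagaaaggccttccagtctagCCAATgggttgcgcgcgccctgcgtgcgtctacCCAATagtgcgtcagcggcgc
Hmmr (chr11:40733438-40733557, minus strand): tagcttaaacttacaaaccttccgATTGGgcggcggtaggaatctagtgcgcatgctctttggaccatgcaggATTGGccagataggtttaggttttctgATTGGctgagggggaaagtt
Cenpf (chr1:189688087-189688206, minus strand): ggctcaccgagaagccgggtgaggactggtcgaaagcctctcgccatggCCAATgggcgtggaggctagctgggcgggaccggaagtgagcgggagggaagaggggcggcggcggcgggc
Ckap2 (chr8:22185820-22185939, minus strand): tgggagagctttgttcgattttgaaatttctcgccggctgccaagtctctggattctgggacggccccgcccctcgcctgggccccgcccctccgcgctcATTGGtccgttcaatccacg
The matches describe the letters of these windows, and binding was not measured.

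Ccnb2, cyclin B2, which drives entry into mitosis (chromosome 9, 70407692 to 70421547, minus strand), was 522 and 335 CPM fresh and 16.2 and 51.4 at pH 6.9 in the odd set. In even-numbered mice it was 225 and 163 fresh and 403, 355 and 293 at pH 6.9. The order was reversed between the sets, with log2 fold changes of -3.57 ± 0.38 in odd-numbered (edgeR adjusted p = 0.000283) and 0.85 ± 0.32 in even-numbered mice (adjusted p = 0.0963), and a difference of 4.43 ± 0.49 (adjusted p = 0.000137). Cenpa, the centromeric histone (chromosome 5, 30666777 to 30674830, plus strand), was 339.6 and 279 CPM fresh and 8.08 and 41.9 at pH 6.9 in the odd set (-3.49 ± 0.42, adjusted p = 0.000896). In even-numbered mice it was 141 and 131 fresh and 182, 147 and 179 at pH 6.9. Nusap1, a spindle protein, changed by -2.70 ± 0.37 in odd-numbered mice. These 3 kept their odd-mouse call without any 1 library and with the mouse number as a term, and lost it with all 18 libraries (adjusted p of 0.431, 0.192 and 0.493).

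The other promoters shown belong to Hmmr, a hyaluronan-binding protein of the spindle (-2.28 ± 0.45 in odd-numbered mice), Cenpf of the kinetochore (-2.03 ± 0.44) and Ckap2 of spindle microtubules (-1.48 ± 0.26), which were named after their values were seen. Their edgeR adjusted p values of 0.0356, 0.0476 and 0.0131 became 0.203, 0.298 and 0.0848 without fresh replicate 3, 0.222, 0.310 and 0.140 without pH 6.9 replicate 1 and 0.0964, 0.191 and 0.0761 with the mouse number as a term. Tacc3, which stabilises spindle microtubules (-1.58 ± 0.27), lost its call without the same libraries (adjusted p of 0.0608 and 0.143). Mki67, a marker of cycling cells, was 351 and 189.7 CPM fresh and 104 and 135 at pH 6.9 in the odd set (-1.17 ± 0.36, adjusted p = 0.151). Among G1 cyclins, Ccnd1 was 44.8 to 72.9 CPM fresh and 52.7 to 106 at pH 6.9, and Ccnd2 276 to 487 and 259.5 to 509.8. Neither was called in any set.

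Of the 25 genes called in both sets, 24 had opposite signs. Tmem119, a membrane protein (chromosome 5, 113793729 to 113800516, minus strand), was 67.2 and 45.8 CPM fresh and 3.11 and 0.278 at pH 6.9 in the odd set. In even-numbered mice it was 4.20 and 0.961 fresh and 116, 118 and 132 at pH 6.9. Its log2 fold changes were -5.89 ± 0.83 (edgeR adjusted p = 0.00352) and 5.55 ± 0.70 (adjusted p = 0.000384). Both calls were kept without any 1 library, but the odd-mouse call was lost with all 18 libraries (adjusted p = 0.0863) and with limma-voom (adjusted p = 0.120). Hsd17b10, a mitochondrial dehydrogenase, was 168 and 238 CPM fresh and 712 and 643 at pH 6.9 in the odd set, and 496 and 466 fresh and 171, 196 and 196 at pH 6.9 in even-numbered mice. In both genes the fresh libraries of the sets lay at different levels. Hsd17b10 lost its odd-mouse call without fresh replicate 3 (adjusted p = 0.0848). Aprt, Ppa1 and Sprr2a1 were higher in odd and lower in even mice, and Golm1, Dglucy, Hvcn1, Lpcat2 and Serpini1 the reverse. Without pH 6.9 replicate 1 the odd-mouse adjusted p of these 8 genes was 0.250, 0.328, 0.263, 0.222, 0.225, 0.179, 0.0769 and 0.170, in the order named, so that all 8 odd-mouse calls were lost. The even-mouse call of Sprr2a1 was lost without fresh replicate 2, fresh replicate 6, pH 6.9 replicate 2 or pH 6.9 replicate 6 (adjusted p of 0.0700, 0.181, 0.0713 and 0.0943), with all 18 libraries (0.210), with DESeq2 (0.0739) and with limma-voom (0.198). That of Dglucy was lost without fresh replicate 6 (adjusted p = 0.129), with all 18 libraries (0.0841) and with limma-voom (0.0512). Golm1, Serpini1 and Ppa1 each lost their even-mouse call under 1 of 12 alternative settings. Sprr2a1 belongs to a family of near-identical copies, so its counts are uncertain.

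Among genes that handle acid, Hvcn1, a voltage-gated proton channel (chromosome 5, 122206804 to 122242297, plus strand), was called in opposite directions in the sets. It was 25.3 and 17.5 CPM fresh and 0.622 and 1.53 at pH 6.9 in the odd set, and 0 and 3.20 fresh and 52.9, 25.7 and 19.7 at pH 6.9 in even-numbered mice. Its odd-mouse adjusted p of 0.0335 became 0.132 without fresh replicate 3, 0.0839 without pH 6.9 replicate 5 and 0.136 with the mouse number as a term (edgeR). Its even-mouse call (adjusted p = 0.00215) was kept without any 1 library. Slc16a1, the lactate and proton carrier MCT1, was 148 and 176 CPM fresh and 65.2, 67.1 and 54.2 at pH 6.9 in even-numbered mice (-1.39 ± 0.30, edgeR adjusted p = 0.00665, or 0.0564 without fresh replicate 6). Its change was -0.91 with all 18 libraries (adjusted p = 0.434). In the odd set it was 146 and 191 fresh and 93.2 and 151 at pH 6.9, which overlap. Car2, carbonic anhydrase 2, was 659 to 1806 CPM fresh and 496 to 1745 at pH 6.9 and was not called. Of 17 genes of lactate, proton and bicarbonate transport tested, 2 were higher (Hvcn1 and Car9) and 1 lower in even-numbered mice (17.6%, against 10.9% of all genes), with 1 lower in odd-numbered mice. Of 4 proton-sensing receptors and channels tested, 0 were called in either set with edgeR.

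Between the cultures at pH 6.9 and pH 7.4, a contrast that shares the pH 6.9 libraries with the comparison above, 0 of 10659 genes were called (0% called, 657 with an unadjusted edgeR p under 0.05). Ndc1 was 100.1 to 212 CPM at pH 7.4 and Cks1b 207 to 423. Ctsd was 2079 to 2749 CPM in odd-numbered and 610.2 to 1022 in even-numbered mice at pH 7.4, the reverse of the order at pH 6.9. Srm was 264 to 315 CPM in odd-numbered and 634 to 829 in even-numbered mice at pH 7.4, again the reverse.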

How the data were processed

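RNA was measured by SMART-Seq v4 and Nextera XT (unstranded) from 100 sorted cells a library, as paired ends of 75 bp, per the labels' protocols. The submitters' processing notes name kallisto and mm10, without versions. Deposited by the authors are estimated counts per gene symbol, all whole numbers (21003 symbols, 15842 with a count in any library). The step from transcripts to genes is not given in the sources used. PCR copies are not independent molecules.

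Genes were filtered with filterByExpr by group, scaled by TMM and tested in edgeR 4.0.16 (R 4.3.3) with robust quasi-likelihood fits, 2-sided, over 15 libraries of 3 groups. One fit had a coefficient per group. Another had 6 coefficients, for group by odd or even mouse number, and gave the changes in odd- and even-numbered mice and their difference. Adjusted p values are Benjamini-Hochberg over all genes tested, with a threshold of 0.05. CPM use TMM-scaled library sizes, and errors of log2 fold changes are standard errors. The fits were also run on simulated counts, with changes set in all or only in the even-numbered pH 6.9 libraries. All other genes had the same mean in every set there, unlike the split between sets seen here. The outcome is not reported here.

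Members, 57 gene lists (1357 of 1365 genes matched, 6 by another symbol) and tests were chosen with earlier results of these data known. Genes are named by a rule. It takes the 10 with the smallest p per direction over all mice that reach 20 CPM and keep 1 sign in both sets (used because fewer than 5 were called). It adds up to 4 called members of each list with at least 3 calls, 26 genes of polyamines, stem cells, the cell cycle and acid handling, and up to 6 genes per direction called in both sets and for their difference. Some genes that the rule takes are not reported here. Coordinates are from GENCODE M21.

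The design text names individual mice, so equal mouse numbers were taken as the same animal. The deviations of the fresh and pH 6.9 libraries of 1 mouse correlated at -0.08, -0.04 and -0.08 in mice 2, 5 and 6. The alternatives were the mouse number as an added term, DESeq2 1.42.0, limma-voom (limma 3.58.1), DESeq2 size factors, no filter and a stricter filter, all 18 libraries, and leaving out each library. A set reduced to 1 library is assumed to vary like the others.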

Additional observations from a re-analysis of the deposited data

Results flagged for a closer look

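In 198 group values of 99 genes (fresh or pH 6.9), 7 had 1 library far from the rest of its group by Dixon's test, and chance alone marks about 1 in 20 groups. Trim34a had its highest fresh value in replicate 5, at 26.947 CPM against 22 to 22.7 in the others. Ccnb1ip1 had its highest fresh value in replicate 5, at 75.5 CPM against 1.94 to 8.97 in the others. Ccnd2 had its highest pH 6.9 value in replicate 5, at 509.8 CPM against 259.5 to 324 in the others. Npm1 had its lowest fresh value in replicate 3, at 1108 CPM against 1988 to 2117 in the others. Hspe1 had its lowest fresh value in replicate 3, at 251 CPM against 529 to 567 in the others. H2-Aa had its highest pH 6.9 value in replicate 5, at 39.4 CPM against 0 to 9.95 in the others. Sprr2a1 had its highest pH 6.9 value in replicate 1, at 364 CPM against 0 to 101 in the others.

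The change at pH 6.9 differed between even- and odd-numbered mice for 1358 genes by edgeR's test of the difference (adjusted p under 0.05), of which 60 are genes examined here. The values are log2 differences, even minus odd. The change was higher in even-numbered mice for Tmem119 (11.45), Itgb5 (8.74), Hvcn1 (8.34), Lpcat2 (7.52), Dglucy (5.97), Serpini1 (5.87), Golm1 (5.16) and Ccng2 (4.60). It was also positive for Ccnb2 (4.43), Cenpa (3.81), Nusap1 (3.44), Pecam1 (3.28), Gclc (2.89), Ctsd (2.85), Hmmr (2.66) and Coq8a (2.31). Positive differences followed for Cenpf (2.29), Grn (2.20), Cdkn1a (2.19), Selplg (2.17), Sqstm1 (2.13), Mxd4 (2.12), Cat (2.12) and Car2 (2.08). A further group held Sesn1 (2.02), Ckap2 (1.77), Gclm (1.43) and Tacc3 (1.32). The change was lower in even-numbered mice for H2-Aa (-11.38), Cd74 (-10.06), Sprr2a1 (-7.64), Hsd17b10 (-3.10), Hspe1 (-2.59), Ppa1 (-2.46), Nhp2 (-2.42) and Aprt (-2.30). It was also negative for Srm (-2.28), Nip7 (-2.19), Atp5g1 (-2.14), Mrpl12 (-2.12), Mrpl20 (-2.02), Ranbp1 (-2.01) and Rpl29 (-2.0). Negative differences followed for Nme1 (-1.99), Eef1d (-1.98), Npm1 (-1.96), Rpl19 (-1.90), Ncl (-1.76), Rpl7a (-1.70), Odc1 (-1.63) and Psmc4 (-1.62). A further group held Mdh2 (-1.53), Cycs (-1.48), Eif5a (-1.47), Eif4a1 (-1.40), Psmb7 (-1.40), Cct5 (-1.34), Ccnd2 (-1.29), Cct7 (-1.15) and Hsp90aa1 (-0.94). For Golm1 and Serpini1 the difference was not called under 1 of 16 alternative settings, and its lowest values over these settings were 2.35 and 1.84. The parts of the preparation and the labelling of the sets in these differences were not tested.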

How the results depend on the processing

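Over all mice the count of genes called was 0 under every setting but the edgeR fit of fresh and pH 6.9 libraries alone (1 gene) and the mean of the odd- and even-mouse contrasts (8 genes), and leaving out each library gave 0 to 0. With all 18 libraries the odd-mouse count of 64 became 1, the even-mouse count of 1164 became 82 and the count for the difference went from 1358 to 678. The odd-mouse count was 391 without a filter, 273 with DESeq2 and 21 with limma-voom. With the mouse number as a block the counts were 0 over all mice, 20 in odd-numbered mice, 941 in even-numbered mice and 939 for the difference. Leaving out each library gave 14 to 150 calls in odd-numbered mice, 422 to 986 in even-numbered mice and 480 to 1317 for the difference. Of 2846 values of 211 gene results, 2421 kept their direction and their side of the threshold, 403 lost a call, 3 gained one and 19 changed sign. Of 162 gene results called, 71 kept the call under every left-out library.

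Signs changed mostly for genes with a small fold change over all mice. With all 18 libraries the log2 fold changes were 0.37 for Cdkn1c, 0.043 for Myc, 1.46 for Serpini1 in odd-numbered mice and -0.079 for Acadl in even-numbered mice. Leaving out each library gave log2 fold changes over all mice of -0.34 to 0.0052 for Ccnd2, -0.31 to 0.11 for Cdkn1c, -0.13 to 0.40 for Kit, -0.27 to 0.077 for Myc, -0.13 to 0.033 for Oaz1 and -0.13 to 0.42 for Socs3. The cause of these changes was not tested. With 2 or 3 libraries a set, their number limits what could be called.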
